A study of Mus musculus with 20 samples.

Results

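The 10 genes described here set the pace of the G1 phase of the cell cycle and were measured in LLC1 tumors. They were chosen by mouse gene symbol from the 35226 genes of the count table. The set holds the D cyclins Ccnd1, Ccnd2 and Ccnd3, the E cyclins Ccne1 and Ccne2, the kinases Cdk4 and Cdk6, the CDK inhibitors Cdkn1b (p27) and Cdkn2c (p18), and Rb1, the pocket protein that these kinases phosphorylate. Each of the 10 had enough reads to be among the 16665 genes tested. LLC1 cells, a line derived from a Lewis lung carcinoma of the mouse, were injected under the skin of the right flank of male C57BL6/J mice, the study's animals being 8 to 10 weeks old, and mice were allotted at random to a treatment once a tumor reached 100 mm3. The 4 groups of 5 tumors received vehicle, KW6002 alone, cisplatin alone, or cisplatin with KW6002 (cotreatment), and 1 poly(A) RNA library was made per tumor. KW6002 (istradefylline) blocks the adenosine A2A receptor and was given in DMSO, cremophor and saline; cisplatin is a platinum drug that crosslinks DNA. The agent of vehicle replicate 1 was written "vehicle" and that of the other 4 "vehicle_vehicle", and all 5 were used as 1 group. The labels did not say that tumors came from different mice, so P values measure the spread between these tumors.

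D cyclins rise when growth signals reach a cell and bind CDK4 or CDK6, and these complexes phosphorylate RB1 and so loosen its hold on E2F transcription factors. Freed E2F drives the genes of DNA replication and the E cyclins, which bind CDK2 and carry the cell into S phase. INK4 inhibitors such as p18 occupy CDK4 and CDK6, whereas p27 and its relatives p21 and p57 bind cyclin and CDK complexes. Many of these steps act on protein, which RNA counts do not measure.

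Libraries held 28.4 to 41 M counted reads. Levels are given as CPM, that is, reads per M after TMM scaling of library size, and differences as log2 fold changes with their SE from edgeR's quasi-likelihood test. A gene was called when its Benjamini-Hochberg adjusted P value over all 16665 genes was under 0.05 and its log2 fold change was at least 0.32 in size. Library codes in the headers of the count columns fell into 2 stretches of numbers. The lower codes are called the earlier run (1 vehicle, 2 KW6002, 2 cisplatin and 3 cotreated tumors). The higher codes are called the later run (4, 3, 3 and 2 tumors). What the codes mark is not given, so a run here is a stretch of codes and not a known batch. The later run was the one with at least 2 tumors in every group, and values within it are given beside the calls of members. Shares of all genes come from the fit on all tumors and are not those of a single run. Markers of several other cell types moved with cisplatin. Of all genes, 4.57% were called lower and 6.01% higher with cisplatin, and 10.4% lower and 13.1% higher with cotreatment. Against KW6002 the shares with cotreatment were 10.7% lower and 12.6% higher. Of 5 fat markers 4 were tested, and of 5 skin epidermis markers 1, with no call in any comparison. All 5 hemoglobin and red cell markers were lower in both cisplatin arms, with summed levels of 25.6 to 117 CPM without cisplatin and 0.110 CPM or less with it. Of 6 endothelial markers, 6 were lower after cisplatin and 5 after cotreatment (122 to 204 CPM without cisplatin, 68.9 to 111 CPM with it). Of 5 neutrophil markers, 4 were tested, with 1 lower after cisplatin and 3 after cotreatment; the summed levels were 41.6 to 138 CPM without cisplatin and 12.7 to 63.9 CPM with it. The 6 macrophage markers gave 1 higher gene after cisplatin, and 1 higher and 1 lower after cotreatment (1030 to 1470 CPM without cisplatin, 1140 to 1990 CPM with it). Of 7 fibroblast markers 3 were lower after cisplatin and 2 after cotreatment (9810 to 12800 CPM without cisplatin, 8550 to 14200 CPM with it). Of 7 T and NK cell markers none was called against vehicle, but 5 were lower with cotreatment than with KW6002 alone (1.43 to 3.60 CPM against 2.84 to 24.8 CPM), as was 1 of 2 tested B cell markers (0.343 to 1.15 CPM against 0.579 to 45.9 CPM). KW6002 replicate 1 held the highest sum of both lists, and without it the log2 fold changes of cotreatment from KW6002 were 0.50 for Ccnd3, -0.50 for Ccne2 and 0.49 for Rb1, all called. Muscle markers summed to 1120 CPM in cotreatment replicate 4, 228 CPM in KW6002 replicate 5, 141 to 260 CPM in cisplatin replicates 1, 3 and 5 and 63.0 CPM or less in the other tumors, and 1 of 6, Actn3, was called higher with cotreatment against vehicle. Markers of carcinoma epithelium summed to 324 to 435 CPM without cisplatin and 468 to 600 CPM with it, with 1 of 4 tested (Krt8) higher in each cisplatin arm, but the epithelial marker Epcam had a median under 10 reads. Of the lung markers, Sftpc and Scgb1a1 also had medians under 10 reads, and the 1 tested, Foxa2, was higher in each cisplatin arm against vehicle and with cotreatment against KW6002 (list sum 2.20 to 2.94 CPM without cisplatin, 3.18 to 5.36 CPM with it). The part of these cells in the results below was not tested, and in bulk tumors fewer cells of a type and less RNA per cell cannot be told apart.

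KW6002 alone gave no call among the 10 genes. None passed against vehicle, as was none of all 16665 genes (0%), and DESeq2 called none either. No member reached an unadjusted P under 0.05, which 339 of all genes did (2.03%). The 10 log2 fold changes lay between -0.14 for Cdkn2c and 0.06 for Ccnd1, and their 95% intervals lay between -0.37 and 0.25.

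After cisplatin alone no member was called, beside 10.6% of all genes tested. Adjusted P values under 0.05 were found for 3 members (Ccnd1, Ccnd3 and Ccne2), beside 16.5% of all genes, but their differences were inside the fold limit. No member's cisplatin tumors were all above or all below the vehicle tumors, beside 10.4% of all genes. At an unadjusted P under 0.05 there were 5 members, these 3 with Cdk6 and Rb1, beside 30.9% of all genes, and DESeq2 called none of the members and 1937 of all genes.

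After cotreatment 3 of the 10 members were called against vehicle, beside 23.5% of all genes tested. Ccnd3 and Rb1 were higher and Ccne2 was lower. With adjusted P alone there were 5 members, with Cdk4 and Cdk6 added on the lower side, beside 35.4% of all genes. The groups did not overlap for 4 members (Ccnd3, Ccne2, Cdk4 and Cdk6), beside 24.7% of all genes. The shares of members and of all genes are thus near each other, and the size of the change is described gene by gene below. Against KW6002 alone the same 3 genes were called, beside 23.3% of all genes, 5 passed on adjusted P alone, beside 35%, and 4 did not overlap, beside 24.9%. The vehicle tumors served as reference for both cisplatin arms, so the 2 sets of differences are not independent.

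**Figure D1:**
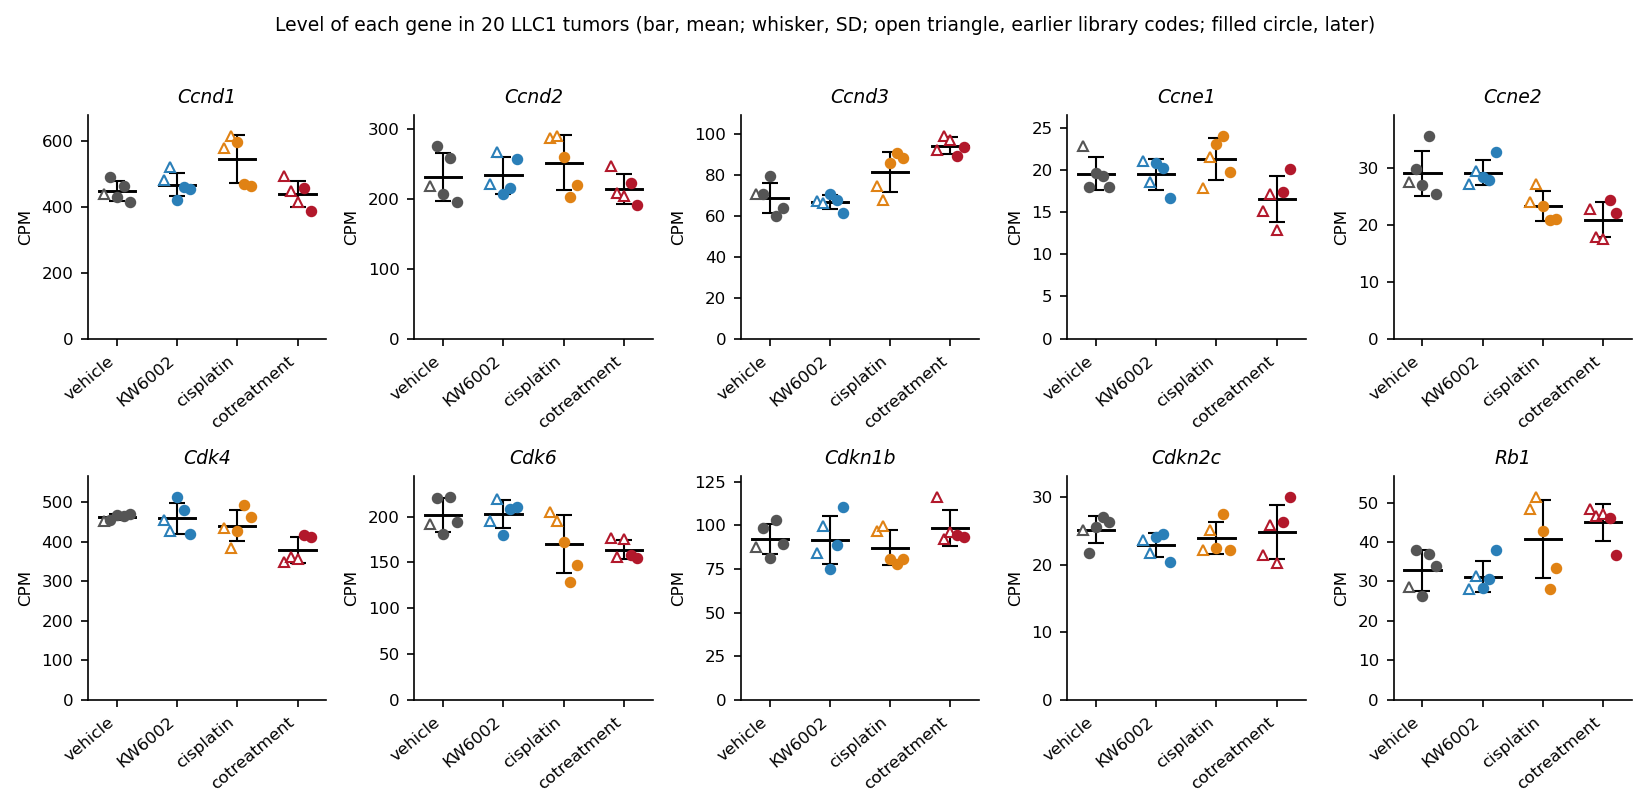
Level of each of the 10 genes in CPM (vertical axis, from 0) in the 20 tumors, by treatment group; points are tumors, open triangles the earlier and filled circles the later library codes, and bars with whiskers the mean and SD of 5 tumors. The cotreated tumors lie above all vehicle tumors for Ccnd3 and below all of them for Ccne2, Cdk4 and Cdk6.

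Among the D cyclins, Ccnd3 rose with cotreatment, Ccnd1 was highest after cisplatin alone, and Ccnd2 was not called in any comparison. Ccnd3 (ENSMUSG00000034165, chr17:47505051-47599691, plus strand, GRCm38) stood at 70.3, 70.4, 79.1, 59.9 and 63.5 CPM in vehicle replicates 1 to 5 and at 92.2, 99.0, 97.1, 89.0 and 93.4 CPM in cotreated replicates 1 to 5. Every cotreated tumor was above every vehicle tumor and above every KW6002 tumor (61.2 to 70.8 CPM). The mean rose from 68.6 ± 7.36 to 94.1 ± 3.98 CPM (SD, n = 5 each), a log2 fold change of 0.46 with an SE of 0.077 (1.37-fold, adjusted P = 0.000126, edgeR). Against KW6002 alone the log2 fold change was 0.50 with an SE of 0.0771 (adjusted P = 4.99e-05, edgeR). Leaving out any 1 of the 20 tumors kept the call in both comparisons. Within the later run the log2 fold change was 0.44 from vehicle (adjusted P = 0.0119, edgeR) and 0.47 from KW6002 (adjusted P = 0.0154, edgeR), both called.

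Ccnd3 after cisplatin alone differed between the runs. Cisplatin replicates 1 to 5 had 74.6, 67.8, 85.6, 90.5 and 88.2 CPM. The 2 tumors of the earlier run lay within the vehicle range and the 3 of the later run above all vehicle tumors. The log2 fold change from vehicle was 0.25 with an SE of 0.077 (adjusted P = 0.0338, edgeR), inside the fold limit, and 0.39 within the later run, where it was called (adjusted P = 0.0107). Between cotreatment and cisplatin it was 0.21 with an SE of 0.0767 (adjusted P = 0.104). That difference was 0.44 in the earlier run, where it was called (adjusted P = 0.0169), and 0.05 in the later run (adjusted P = 0.865).

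Ccnd1 (ENSMUSG00000070348, chr7:144929931-144939925, minus strand) is the D cyclin with the highest read level here. Its cisplatin replicates 1 to 5 had 581, 617, 598, 469 and 466 CPM, against 441, 492, 431, 465 and 414 CPM in vehicle replicates 1 to 5 and 494, 448, 414, 457 and 389 CPM in cotreated replicates 1 to 5. Cisplatin replicates 1 to 3 lay above every tumor of the other groups, KW6002 tumors (422 to 521 CPM) included, and replicates 4 and 5 within the vehicle range. The log2 fold change from vehicle was 0.28 with an SE of 0.0841 (adjusted P = 0.0246, edgeR). From cisplatin to cotreatment it was -0.31 with an SE of 0.0841 (adjusted P = 0.0314, edgeR), also inside the fold limit, and cotreatment differed from vehicle by -0.03 with a 95% interval from -0.20 to 0.15. Single tumors set the side of the fold limit. The difference of cisplatin from vehicle was called without cisplatin replicate 4 (0.35), cisplatin replicate 5 (0.34) or vehicle replicate 2 (0.33), and that from cisplatin to cotreatment without cisplatin replicate 4 or 5 (-0.36 each), cotreatment replicate 1 (-0.36) or cotreatment replicate 4 (-0.32). Within the earlier run cotreatment differed from cisplatin by -0.40 (adjusted P = 0.0379), within the later run by -0.27 (adjusted P = 0.364). With the run as a term it was -0.33 and was called (adjusted P = 0.0155).

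Ccnd2 (ENSMUSG00000000184, chr6:127125162-127152193, minus strand) spread widely within every group. It ranged from 195 to 274 CPM with a median of 218 in vehicle tumors, from 207 to 266 CPM with KW6002, from 202 to 290 CPM with cisplatin and from 190 to 247 CPM with cotreatment. All 4 groups overlapped. Its lowest adjusted P was 0.214 (edgeR, cotreatment against cisplatin, log2 fold change -0.23 with an SE of 0.111).

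The makeup of the D cyclins was described per length, since a longer transcript gives more reads. Per kilobase of all annotated exons, Ccnd1 held 74.7 ± 0.827% of D cyclin reads in vehicle tumors, Ccnd2 19.1 ± 1.42% and Ccnd3 6.17 ± 0.838% (SD, n = 5). The Ccnd3 share was 5.78 ± 0.62% with KW6002, 6.24 ± 1.45% with cisplatin and 8.50 ± 0.872% with cotreatment. The lowest cotreated tumor (7.42%) lay just above the highest vehicle tumor (7.36%), and cisplatin tumors (4.56 to 7.85%) overlapped both. The share of Ccnd3 rests on the length used, because its annotated exons add up to 8775 bases while its longest coding transcript has 2113. With the length of the longest coding transcript, chosen after seeing the data, Ccnd3 held 17.3 ± 2.09% in vehicle and 22.8 ± 1.99% in cotreated tumors. Within each tumor, the ratio of Ccnd1 to Ccnd3 per kilobase of exons was 10.2 to 14.4 in vehicle, 11.1 to 14.7 with KW6002, 9.65 to 17.0 with cisplatin and 7.75 to 9.98 with cotreatment, so that cotreated tumors lay below the vehicle and KW6002 tumors on this ratio.

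The table of RefSeq promoters (GRCm38.p6, 250 bases before to 50 after a gene's start) held 6 of the 10 members: Ccnd3, Ccne1, Cdk4, Cdk6, Cdkn1b and Cdkn2c. They were searched on both strands for the E-box letters CACGTG, for the GC box letters GGGCGG and for the E2F-type letters TTTCCCGC, TTTCGCGC, TTTGCCGC and TTTGGCGC, which occur in 7.15%, 35.7% and 2.26% of the 32851 promoters of the table. None of the 8 windows of the 6 members held the E2F-type letters as spelled. The promoter at the second start of Ccnd3, chr17:47593217-47593516 on the plus strand, is shown because Ccnd3 was the member that differed most clearly between groups, and capitals mark its 2 GC boxes, written CCGCCC where they lie on the other strand.
Ccnd3: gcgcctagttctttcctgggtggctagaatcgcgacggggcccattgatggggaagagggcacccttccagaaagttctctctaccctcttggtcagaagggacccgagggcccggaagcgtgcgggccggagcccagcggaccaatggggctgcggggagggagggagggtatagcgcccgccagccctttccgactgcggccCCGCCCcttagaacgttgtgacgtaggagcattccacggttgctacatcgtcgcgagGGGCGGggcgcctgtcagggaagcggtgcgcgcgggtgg

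Of the E cyclins, Ccne2 fell with cotreatment against vehicle and against KW6002, and Ccne1 was called between cotreatment and cisplatin. Ccne2 (ENSMUSG00000028212, chr4:11191351-11204779, plus strand) had 27.4, 29.7, 26.97, 35.6 and 25.4 CPM in vehicle replicates 1 to 5 and 22.8, 17.9, 17.4, 24.3 and 22.0 CPM in cotreated replicates 1 to 5. All cotreated tumors were below all vehicle tumors and all KW6002 tumors (27.1 to 32.8 CPM). The mean fell from 29.0 ± 3.99 to 20.9 ± 3.05 CPM (SD, n = 5 each), a log2 fold change of -0.48 with an SE of 0.104 (0.719 times the vehicle level, adjusted P = 0.00122, edgeR). Against KW6002 alone the log2 fold change was -0.48 with an SE of 0.104 (adjusted P = 0.0012, edgeR), and both calls were kept without any 1 tumor. Cisplatin replicates 1 to 5 stood at 23.9, 27.1, 23.3, 20.8 and 21.1 CPM and overlapped both groups. Their log2 fold change from vehicle was -0.32 with an SE of 0.103 (adjusted P = 0.0385, edgeR), just inside the fold limit, and it was called without vehicle replicate 3 (-0.33), vehicle replicate 5 (-0.36), KW6002 replicate 1 (-0.32) or cisplatin replicate 2 (-0.38). From cisplatin to cotreatment the difference was -0.16 with an SE of 0.104 (adjusted P = 0.38). Within the later run Ccne2 was lower than vehicle by -0.42 with cisplatin (adjusted P = 0.0166, called) and by -0.33 with cotreatment (adjusted P = 0.0871, not called). Cotreatment differed from KW6002 by -0.53 in the earlier run (adjusted P = 0.011, called) and by -0.35 in the later run (adjusted P = 0.102, not called).

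Ccne1 (ENSMUSG00000002068, chr7:38097984-38107534, minus strand) had its highest mean after cisplatin and its lowest after cotreatment. Cisplatin replicates 1 to 5 had 17.9, 21.6, 23.1, 24.0 and 19.8 CPM and cotreated replicates 1 to 5 had 15.1, 17.2, 12.8, 17.4 and 20.2 CPM. Vehicle tumors ranged from 17.97 to 22.8 CPM and KW6002 tumors from 16.7 to 21.0 CPM. The 2 cisplatin arms overlapped through cisplatin replicates 1 and 5 and cotreated replicate 5. Cotreatment was lower than cisplatin by a log2 fold change of -0.36 with an SE of 0.108 (0.777 times the cisplatin level, adjusted P = 0.0462, edgeR). This was the sole call among members in that comparison, beside 4% of all genes. With adjusted P alone Ccnd1 joined it, beside 6.52% of all genes, and no member's arms were free of overlap, beside 4.83% of all genes. The Ccne1 call was close to the threshold. It was kept in 5 of 20 fits that left out 1 tumor (vehicle replicate 1, KW6002 replicate 5, cisplatin replicate 1, and cotreated replicates 4 and 5) and lost in the other 15, with log2 fold changes from -0.45 to -0.28 and adjusted P from 0.0226 to 0.156. Within runs it was -0.38 in the earlier (adjusted P = 0.194) and -0.25 in the later run (adjusted P = 0.419). With the run as a term the Ccne1 call was lost (-0.35, adjusted P = 0.0612), and Ccnd1 was then the one member called between the cisplatin arms. The replicate block, RLE scaling, upper quartile scaling, no filter and only the groups compared also lost the Ccne1 call, while DESeq2 made it. Against vehicle the difference was -0.24 with an SE of 0.108 (adjusted P = 0.0872), and 0.02 within the later run.

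Per kilobase of exons Ccne1 made up 47.0 ± 4.16% of E cyclin reads in vehicle, 46.8 ± 4.18% with KW6002, 54.5 ± 4.30% with cisplatin and 50.9 ± 4.06% with cotreatment (SD, n = 5), with overlapping ranges in all groups. The promoter of Ccne1, chr7:38107441-38107740 on the minus strand, is shown because Ccne1 was the one member called between the cisplatin arms. It was the richest of the 8 windows in G and C (76.0%), and capitals mark its 4 GC boxes.
Ccne1: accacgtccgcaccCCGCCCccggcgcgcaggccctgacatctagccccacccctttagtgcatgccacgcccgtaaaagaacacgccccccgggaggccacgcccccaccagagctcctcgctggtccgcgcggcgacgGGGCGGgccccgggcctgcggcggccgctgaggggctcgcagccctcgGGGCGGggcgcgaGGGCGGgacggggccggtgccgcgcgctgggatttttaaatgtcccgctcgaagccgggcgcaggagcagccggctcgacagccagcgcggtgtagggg

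Both kinases were lower with cotreatment than in every vehicle tumor, by differences inside the fold limit. Cdk4 (ENSMUSG00000006728, chr10:127063534-127067920, plus strand) had 452, 455, 468, 464 and 469 CPM in vehicle replicates 1 to 5 and 349, 361, 357, 416 and 411 CPM in cotreated replicates 1 to 5. The vehicle tumors were tightly grouped, and the 3 cotreated tumors of the earlier run were lower than the 2 of the later run. The log2 fold change was -0.28 with an SE of 0.0691 (0.821 times the vehicle level, adjusted P = 0.0029, edgeR), and -0.28 with an SE of 0.0691 against KW6002 alone (adjusted P = 0.00381, edgeR). KW6002 tumors (419 to 514 CPM) did not overlap the cotreated tumors, and cisplatin tumors (385 to 493 CPM) did. Within the later run the difference of cotreatment from vehicle was -0.15 (adjusted P = 0.271). From cisplatin to cotreatment it was -0.22 with an SE of 0.0691 (adjusted P = 0.0618 with edgeR and 0.0366 with DESeq2).

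Cdk6 (ENSMUSG00000040274, chr5:3341485-3531008, plus strand) stood at 192, 220, 180, 222 and 194 CPM in vehicle replicates 1 to 5 and at 176, 156, 175, 158 and 155 CPM in cotreated replicates 1 to 5. Again no cotreated tumor reached the vehicle range or that of KW6002 (180 to 219 CPM). The log2 fold change from vehicle was -0.30 with an SE of 0.099 (adjusted P = 0.0236, edgeR). It was called without vehicle replicate 3 (-0.32) or cotreatment replicate 1 (-0.33), within the later run (-0.36, adjusted P = 0.0447), and with the run as a term (-0.36, adjusted P = 0.00642). Against KW6002 alone it was -0.31 with an SE of 0.099 (adjusted P = 0.0205, edgeR), and was called without KW6002 replicate 3 (-0.34), cotreatment replicate 1 (-0.33) or cotreatment replicate 3 (-0.32). Cisplatin tumors split by run for Cdk6, with 205 and 195 CPM in the earlier run and 173, 129 and 147 CPM in the later one. The cisplatin difference from vehicle was accordingly -0.25 over all tumors (SE 0.099, adjusted P = 0.0933, edgeR) and -0.43 within the later run, where it was called (adjusted P = 0.0102). Per kilobase of exons Cdk4 made up 90.8 ± 0.812% of the reads of both kinases in vehicle and 90.8 ± 1.15% in cotreated tumors, a difference within the spread between tumors.

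The kinase promoters are shown because they held the E-box letters CACGTG, which MYC and related factors bind, in unequal number. A window of Cdkn2c, not shown, also held 1 of them, at position 35. Cdk4, chr10:127063285-127063584 on the plus strand, held 4 of them, and 8 of the 32851 promoters (0.0244%) held at least 4. They lay at positions -172, -118, -98 and -11 from the start. Cdk6, chr5:3343643-3343942 on the plus strand, held 1, at position -220. Capitals mark these and, in Cdk4, its 3 GC boxes, 2 of which share a base.
Cdk4: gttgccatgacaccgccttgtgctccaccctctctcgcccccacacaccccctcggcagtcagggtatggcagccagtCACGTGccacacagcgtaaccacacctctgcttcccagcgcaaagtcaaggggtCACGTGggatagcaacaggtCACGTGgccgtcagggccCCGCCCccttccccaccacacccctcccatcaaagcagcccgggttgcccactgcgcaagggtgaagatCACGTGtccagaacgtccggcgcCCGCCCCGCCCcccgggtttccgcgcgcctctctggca
Cdk6: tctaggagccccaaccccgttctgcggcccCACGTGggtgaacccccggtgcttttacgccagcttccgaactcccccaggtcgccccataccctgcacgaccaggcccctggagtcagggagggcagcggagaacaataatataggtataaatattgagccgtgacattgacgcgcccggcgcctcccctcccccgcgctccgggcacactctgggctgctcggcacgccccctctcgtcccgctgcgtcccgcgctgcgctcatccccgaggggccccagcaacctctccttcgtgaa

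The inhibitors Cdkn1b and Cdkn2c were not called in any of the 6 comparisons. Cdkn1b (ENSMUSG00000003031, chr6:134920401-134925513, plus strand), which encodes p27, had 87.7, 98.6, 81.5, 103 and 89.4 CPM in vehicle replicates 1 to 5 and 117, 92.2, 96.1, 94.3 and 93.5 CPM in cotreated replicates 1 to 5. Only cotreated replicate 1 was above the vehicle range. The cisplatin tumors had 96.8 and 99.6 CPM in the earlier run and 80.9, 78.1 and 80.6 CPM in the later run, and KW6002 tumors ranged from 74.8 to 111 CPM. Cotreatment differed from vehicle by 0.10 with a 95% interval from -0.11 to 0.30, and from cisplatin by 0.18 with an interval from -0.03 to 0.38 (adjusted P = 0.292, edgeR). Without cotreated replicate 1 these differences were 0.03 and 0.11. Cdkn2c (ENSMUSG00000028551, chr4:109660876-109667189, minus strand), the INK4 inhibitor p18, ranged from 21.8 to 27.1 CPM in vehicle, from 20.4 to 24.5 CPM with KW6002, from 22.2 to 27.5 CPM with cisplatin and from 20.2 to 30.0 CPM with cotreatment. All groups overlapped, and its log2 fold change from vehicle was -0.08 with cisplatin (95% interval from -0.28 to 0.13) and -0.02 with cotreatment (from -0.22 to 0.18).

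Because kinases and inhibitors were measured in the same tumors, their ratio was also described. Per kilobase of exons the Cdk4 level was 14.2 to 17.3 times that of Cdkn2c in vehicle, 16.0 to 17.6 times with KW6002, 12.7 to 17.2 times with cisplatin and 11.3 to 14.6 times with cotreatment. Cotreated tumors overlapped vehicle tumors on this ratio and lay below the KW6002 tumors. The ratio of Cdk4 to Cdkn1b was 6.30 to 8.05 in vehicle and 4.20 to 6.18 with cotreatment, without overlap, and 5.30 to 9.62 with KW6002 and 5.41 to 8.84 with cisplatin, both overlapping cotreatment. For Ccne2 against Cdkn1b it was 0.370 to 0.449 in vehicle, 0.383 to 0.494 with KW6002, 0.322 to 0.375 with cisplatin and 0.236 to 0.335 with cotreatment. This ratio was lowest in cotreated tumors, all of which lay below all vehicle and KW6002 tumors. The ratio of Ccne1 to Cdkn1b, at 0.312 to 0.444 in vehicle and 0.222 to 0.369 with cotreatment, and that of Cdk6 to Cdkn2c, at 1.35 to 1.94 and 0.989 to 1.66, overlapped between cotreatment and every other group. For Ccnd3 against Cdk4 it was 0.0478 to 0.0626 in vehicle, 0.051 to 0.0576 with KW6002, 0.0635 to 0.0741 with cisplatin and 0.0792 to 0.101 with cotreatment. Cotreated tumors lay above all others on this ratio, and cisplatin tumors above the vehicle and KW6002 tumors. With cotreatment Ccnd3 alone was above, and Cdk4 alone below, all vehicle and KW6002 tumors, so the ratio restates that separation. No share over other pairs of genes was taken for these ratios. For Ccnd1 against Cdk4, vehicle (0.61 to 0.745), cisplatin (0.657 to 1.11) and cotreatment (0.652 to 0.976) overlapped. Against Cdk6, Ccnd1 was 6.23 to 7.1 in vehicle and 6.44 to 7.32 with KW6002. It was 8.4 to 10.8 with cisplatin, above all of these tumors, and 7.04 to 8.59 with cotreatment, overlapping every other group. For Ccnd3 against Cdk6 the ranges were 0.431 to 0.699 in vehicle, 0.464 to 0.627 with KW6002 and 0.555 to 1.12 with cisplatin. Cotreated tumors (0.834 to 1.01) lay above vehicle and KW6002 tumors, as for Ccnd3 alone.

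Rb1, which holds E2F in check until it is phosphorylated, rose with cotreatment. Rb1 (ENSMUSG00000022105, chr14:73183673-73325822, minus strand) had 28.7, 38.1, 26.2, 37.1 and 34.0 CPM in vehicle replicates 1 to 5 and 48.3, 46.6, 47.2, 46.2 and 36.8 CPM in cotreated replicates 1 to 5. The groups overlapped through cotreated replicate 5 alone, which lay below 2 vehicle tumors. The mean rose from 32.8 ± 5.19 to 45.0 ± 4.66 CPM (SD, n = 5 each), a log2 fold change of 0.46 with an SE of 0.143 (1.37-fold, adjusted P = 0.0172, edgeR), and against KW6002 alone (28.1 to 37.9 CPM) it was 0.53 with an SE of 0.143 (adjusted P = 0.00715). Both calls were kept without any 1 tumor. Within the later run the difference from vehicle was 0.32 and was not called (adjusted P = 0.274), and that from KW6002 was 0.38 in the later run (adjusted P = 0.238) and 0.68 in the earlier run, where it was called (adjusted P = 0.000489). Cisplatin tumors were split for Rb1, with 48.3 and 51.5 CPM in the earlier run and 42.9, 28.1 and 33.5 CPM in the later one. The cisplatin difference from vehicle was 0.32 with an SE of 0.143 (adjusted P = 0.138, edgeR), 0.06 within the later run, and 0.44 and called without cisplatin replicate 4 (adjusted P = 0.0269). From cisplatin to cotreatment Rb1 differed by 0.14 and was not called (adjusted P = 0.587, edgeR), with 0.03 to 0.24 when 1 tumor was left out.

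**Figure D2:**
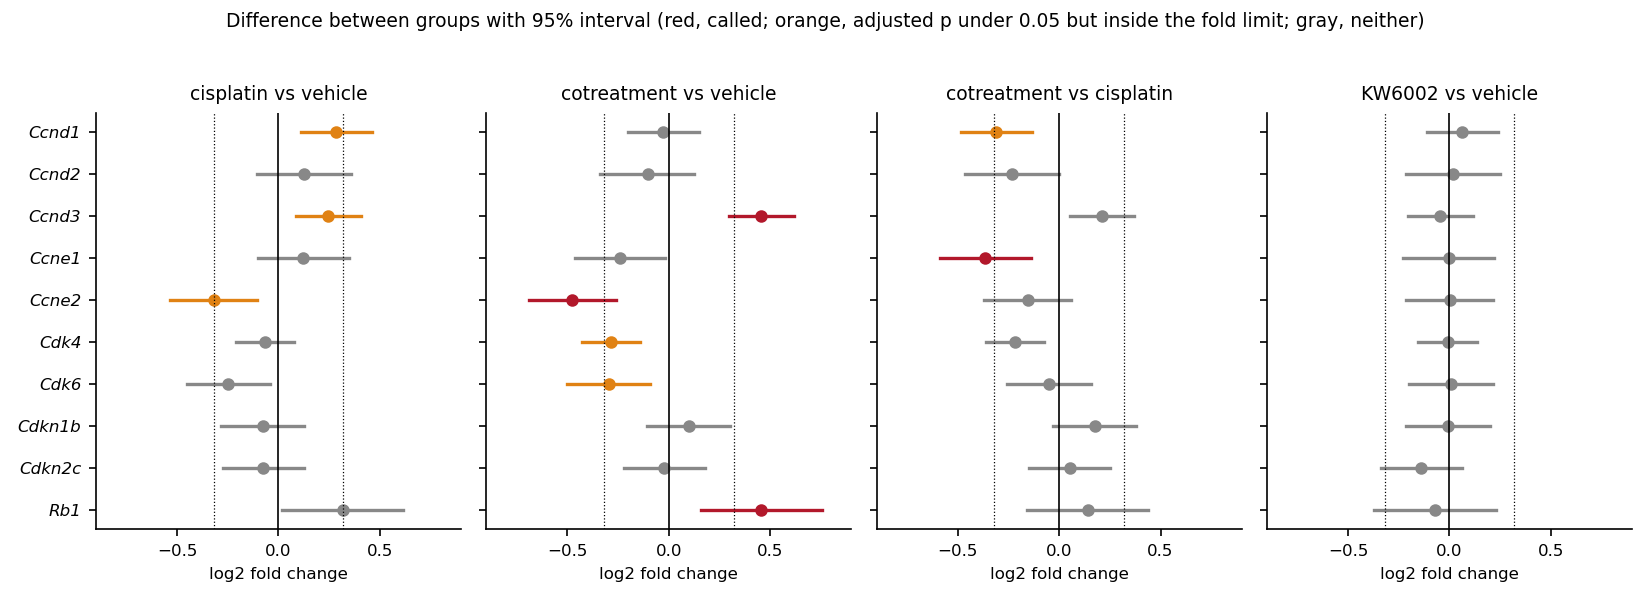
Log2 fold change (horizontal axis) of each gene in 4 comparisons, with 95% intervals from edgeR; red points are called, orange points have an adjusted P under 0.05 inside the fold limit of 0.32 (dotted lines), and gray points neither. With cotreatment against vehicle Ccnd3 (0.46) and Rb1 (0.46) lie to the right and Ccne2 (-0.48) to the left, while all 10 points for KW6002 alone lie between -0.14 and 0.06.

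The interaction asks whether the response to KW6002 differed between mice with and without cisplatin, and no member was called, beside 0.066% of all genes. The interaction was under an unadjusted P of 0.05 for 4 of the 10 members, beside 12.2% of all genes (2034). These members were Ccnd1 (-0.37, SE 0.119, adjusted P = 0.19), Ccne1 (-0.36, SE 0.152, adjusted P = 0.337), Cdk4 (-0.21, SE 0.0976, adjusted P = 0.394) and Ccnd3 (0.26, SE 0.109, adjusted P = 0.342). DESeq2 called none of the 10 either, and 263 of all genes against 11 by edgeR.

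Levels of the 10 genes spanned a wide range. Per kilobase of exons in vehicle tumors, Cdk4 was first (142 ± 2.33 CPM per kilobase, SD, n = 5) and Ccnd1 second (95.2 ± 6.42), followed by Ccnd2 (24.5 ± 3.66), Cdkn1b (20.2 ± 1.92), Cdk6 (14.4 ± 1.31), Cdkn2c (9.37 ± 0.761), Ccne2 (8.30 ± 1.14), Ccnd3 (7.82 ± 0.839), Ccne1 (7.34 ± 0.740) and Rb1 (5.45 ± 0.863). Neighboring genes overlapped for Ccnd2 with Cdkn1b and along the run from Cdkn2c through Ccne2 and Ccnd3 to Ccne1. In cotreated tumors the first 5 genes kept this order, Ccnd3 stood sixth (10.7 ± 0.453) and Rb1 eighth (7.48 ± 0.775), and the E cyclins were last, at 6.21 ± 1.03 for Ccne1 and 5.97 ± 0.873 for Ccne2. There the ranges of neighbors overlapped for Ccnd2 with Cdkn1b and from Cdk6 down to Ccne2. Cdk4 and Ccnd1 overlapped only in the cisplatin group, where they stood at 136 ± 12.4 and 116 ± 15.5 CPM per kilobase. With the length of the longest coding transcript Cdk4 and Ccnd1 were again first and second in vehicle tumors (225 ± 3.69 and 120 ± 8.08), and Ccnd3 was near Ccnd2 (32.5 ± 3.49 and 36.4 ± 5.44).

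**Figure D3:**
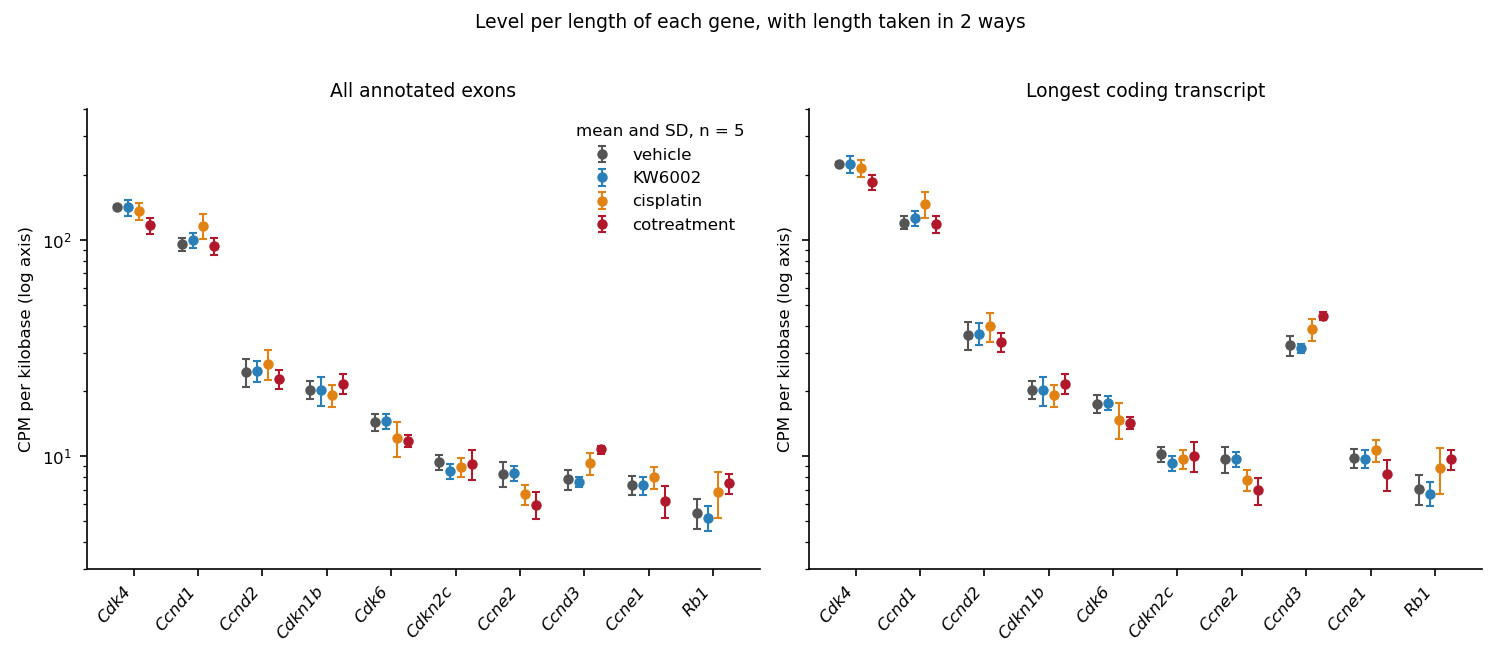
Level per length of the 10 genes (CPM per kilobase, log axis; mean and SD of 5 tumors per group), with length taken as all annotated exons (left) or as the longest coding transcript (right). Cdk4 and Ccnd1 are highest in both panels, and Ccnd3 moves from 7.82 to 32.5 in vehicle tumors with the choice of length.

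Exons of 7 members overlap those of a gene on the other strand, and the strand setting of the counting was not given in the sources used here, so reads of the shared bases are uncertain. Of the 3 genes called against vehicle, Ccnd3 and Rb1 had partners of the opposite sign, and Ccne2 a partner of the same sign with a smaller change. The part of shared reads was not tested. Bysl, which shares 361 bases with Ccnd3, had a log2 fold change of -0.26 with cotreatment (SE 0.0847), Ints8, which shares 609 bases with Ccne2, one of -0.09 (SE 0.0812), and Rcbtb2 and Lpar6, which share 488 and 408 bases with Rb1, -0.05 (SE 0.0684) and -0.22 (SE 0.123). Tspan31, which shares 641 bases with Cdk4, had -0.27 (SE 0.0568), close to the value of Cdk4.

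The other inhibitors of the family were led by Cdkn1a (p21), a p53 target that blocks CDK2 complexes, which rose in both cisplatin arms. It ranged from 260 to 393 CPM in vehicle, from 261 to 386 CPM with KW6002, from 461 to 581 CPM with cisplatin and from 478 to 622 CPM with cotreatment, without overlap between tumors with and without cisplatin. The log2 fold change from vehicle was 0.72 (SE 0.114, adjusted P = 0.00026, edgeR) with cisplatin and 0.77 (SE 0.114, adjusted P = 3.63e-05) with cotreatment, and between the arms it was 0.05 (SE 0.113, adjusted P = 0.841). It was 0.71 with cisplatin and 0.68 with cotreatment within the later run, both called. Cdkn2d (p19) was at 22.2 to 25.1 CPM in vehicle and 21.3 to 27.7 CPM with cotreatment, with a log2 fold change of 0.01 (SE 0.0823, adjusted P = 0.934). Cdkn1c (p57) was barely detected, at 1 to 27 reads per library, and its difference of 0.90 between cotreatment and vehicle had an SE of 0.654 (adjusted P = 0.308). That difference ranged from 0.43 to 1.58 when 1 tumor was left out, and none of the 20 fits called it. Cdkn2a and Cdkn2b did not pass the filter, with 0 to 6 and 2 to 12 reads per library. Of 5 inhibitors in this list 3 were thus tested, and 1 rose in each cisplatin arm against vehicle, where 6.01% of all genes were called higher with cisplatin and 13.1% with cotreatment.

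Targets of E2F at the start of S phase were the list in which most genes were lower. Of 20 genes, all tested, 13 fell with cotreatment against vehicle and none rose, where 10.4% of all genes tested were called lower. The median log2 fold change of the list was -0.39, beside -0.02 for all genes. Tyms (thymidylate synthase) fell from 36.6 ± 1.57 to 22.7 ± 3.48 CPM (log2 fold change -0.69, SE 0.0867, adjusted P = 5.25e-06, edgeR), and Mcm3, a subunit of the replicative helicase, from 257 ± 20.1 to 162 ± 18.9 CPM (-0.66, SE 0.0782, adjusted P = 2.6e-06). Both were also called within the later run, Tyms at -0.48 and Mcm3 at -0.49. With cisplatin alone 1 gene was called higher, Tk1 (0.35, SE 0.118, adjusted P = 0.0499, edgeR), beside 6.01% of all genes, and none lower, beside 4.57%, with a median of -0.15 and 11 of 20 genes at an unadjusted P under 0.05 (30.9% of all genes). The Tk1 call was kept in 7 of 20 fits without 1 tumor and lost with the replicate block (0.34, adjusted P = 0.0843), and DESeq2 also called 1 gene higher and none lower. In the later run alone Tk1 was higher (0.50) and Chek1 lower (-0.35) with cisplatin. From cisplatin to cotreatment 5 fell (Mcm2, Mcm3, Mcm5, Tyms and Cdc6), beside 1.71% of all genes called lower, with a median of -0.25. Against KW6002 alone 12 fell, beside 10.7% of all genes called lower. Within the later run 7 were lower with cotreatment than with vehicle, 6 than with KW6002 and none than with cisplatin. In the earlier run 12 were lower than with KW6002 and 2 than with cisplatin. Shares of all genes within a run are not given beside these counts. The topic of this list overlaps annotations that the study drew from these tumors, and its direction is not independent evidence.

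Among 18 pocket proteins, E2F factors and their partners, 2 rose and 4 fell with cotreatment, beside 13.1% and 10.4% of all genes. The pocket protein Rbl2 (p130), which holds the repressor E2F factors in resting cells, rose from 64.5 ± 2.36 to 89.3 ± 5.85 CPM (0.47, SE 0.0619, adjusted P = 8.97e-06, edgeR), and Tfdp2, a dimer partner of E2F, from 47.4 ± 3.53 to 62.6 ± 5.67 CPM (0.40, SE 0.0884, adjusted P = 0.00134). The activator E2f1 was called lower, falling from 54.2 ± 2.72 to 43.3 ± 3.46 CPM (-0.32, SE 0.0659, adjusted P = 0.000706) and the repressor E2f7 from 21.5 ± 0.83 to 16.8 ± 0.377 CPM (-0.36, SE 0.0719, adjusted P = 0.000627). E2f2 and E2f5 were the other genes that fell. The call of E2f1 lay at the fold limit: it was kept in 6 of 20 fits without 1 tumor, and its log2 fold change was -0.31 and not called with RLE scaling, without a filter or with DESeq2, which called 5 of the 18. E2f2 was not called without vehicle replicate 5, and E2f5 not without vehicle replicate 4 or cotreatment replicate 2 or 5. Against KW6002 alone 2 were again higher (Rbl2 and Tfdp2) but 2 lower (E2f2 and E2f5), beside 12.6% and 10.7% of all genes, and E2f1 (-0.29) and E2f7 (-0.24) were not called. In the later run alone 1 was higher (Rbl2, 0.34) and 1 lower (E2f5, -0.39) than with KW6002. With cisplatin alone none of the 18 was called by edgeR or DESeq2, beside 10.6% of all genes by edgeR, and 6 had an unadjusted P under 0.05, beside 30.9%, while in the later run alone E2f2 (-0.40) and E2f5 (-0.35) were called lower. Between cotreatment and cisplatin neither tool called any, beside 4% by edgeR, and 8 had an unadjusted P under 0.05, beside 23.3%. In the later run alone Rbl2 (0.37) was higher and E2f5 (-0.40) lower with cotreatment than with vehicle, while Tfdp2 (0.28), E2f1 (-0.17), E2f2 (-0.31) and E2f7 (-0.31) were not called.

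The list of enzymes that turn over G1 cyclins and p27 (16 genes) gave 2 higher and 1 lower gene with cotreatment, beside 13.1% and 10.4% of all genes. Fbxo4 and Fbxo31, F-box proteins linked to the breakdown of cyclin D1, rose from 17.1 ± 1.01 to 23.5 ± 1.66 CPM (0.46, SE 0.0672, adjusted P = 2.76e-05, edgeR) and from 31.4 ± 3.76 to 42.0 ± 3.60 CPM (0.42, SE 0.0724, adjusted P = 0.000152). Skp2, the F-box protein that marks p27 for breakdown, fell from 53.2 ± 2.52 to 41.3 ± 2.84 CPM (-0.36, SE 0.0589, adjusted P = 8.17e-05). In all 3 the cotreated and vehicle tumors did not overlap, as for 24.7% of all genes, while the RNA of p27 itself was not called. In the later run alone Fbxo4 (0.38) and Fbxo31 (0.48) were called and Skp2 was not (-0.29, adjusted P = 0.0228), and Skp2 was also not called without cotreatment replicate 2. Against KW6002 alone the list again gave 2 higher and 1 lower gene, beside 12.6% and 10.7% of all genes. In the later run alone it gave 2 higher (Fbxo4 and Fbxo31) and 0 lower against KW6002. With cisplatin alone none was called by edgeR or DESeq2, beside 10.6% by edgeR, and 7 of 16 had an unadjusted P under 0.05, beside 30.9%, while in the later run alone Cul4b was called lower (-0.38).

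CDK2, its activators and the later cyclins gave 1 higher gene with cotreatment among 13 tested of 14, beside 13.1% of all genes. Wee1, which restrains CDK1 and CDK2 by phosphorylation, rose from 44.2 ± 3.0 to 68.1 ± 10.5 CPM with cotreatment (0.63, SE 0.153, adjusted P = 0.00359, edgeR), and within the later run the difference was 0.50 and not called (adjusted P = 0.104). With cisplatin alone no gene of this list was called by edgeR or DESeq2 over all tumors, beside 10.6% by edgeR, and 3 had an unadjusted P under 0.05, beside 30.9%. In the later run alone Ccnb2 (0.33) and Pkmyt1 (0.53) were higher and Ccnh (-0.34) lower, with no share of all genes given for that run. Of 16 inducers of D cyclins and p27, 15 were tested, and 1 was called higher and 2 lower with cotreatment, beside 13.1% and 10.4% of all genes. Gli1, a hedgehog effector, rose from 2.90 ± 0.395 to 5.01 ± 0.992 CPM (0.79, SE 0.138, adjusted P = 0.000171), Myc was lower, from 350 ± 52.6 to 249 ± 36.8 CPM (-0.49, SE 0.144, adjusted P = 0.0117) and Jun from 90.1 ± 12.5 to 72.0 ± 6.70 CPM (-0.32, SE 0.1, adjusted P = 0.0161). The call of Jun was lost with the run as a term (-0.30), with DESeq2 (-0.31) and in 15 of 20 fits without 1 tumor, where it ranged from -0.40 to -0.26. Gli1 was called within the later run (0.91, adjusted P = 0.00537), and Myc (-0.29, adjusted P = 0.384) and Jun (-0.23, adjusted P = 0.303) were not. Against KW6002 alone 1 gene of the list was higher and 2 lower, beside 12.6% and 10.7% of all genes, and in the later run 1 higher and 0 lower. From cisplatin to cotreatment 1 was lower, beside 1.71% of all genes. DESeq2 also gave 1 lower there, and the run as a term, the replicate block and each run alone gave 0. Cotreated and vehicle tumors overlapped for Myc and Jun and not for Gli1. With cisplatin alone Gli1 was the single gene called in this list over all tumors (0.56, SE 0.138, adjusted P = 0.00902, edgeR). It was higher, beside 6.01% of all genes called higher and 4.57% called lower. At an unadjusted P under 0.05 there were 2 of 15 genes, beside 30.9% of all genes. In the later run alone Gli1 (0.56) and Fos (1.07) were called higher with cisplatin.

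**Figure D4:**
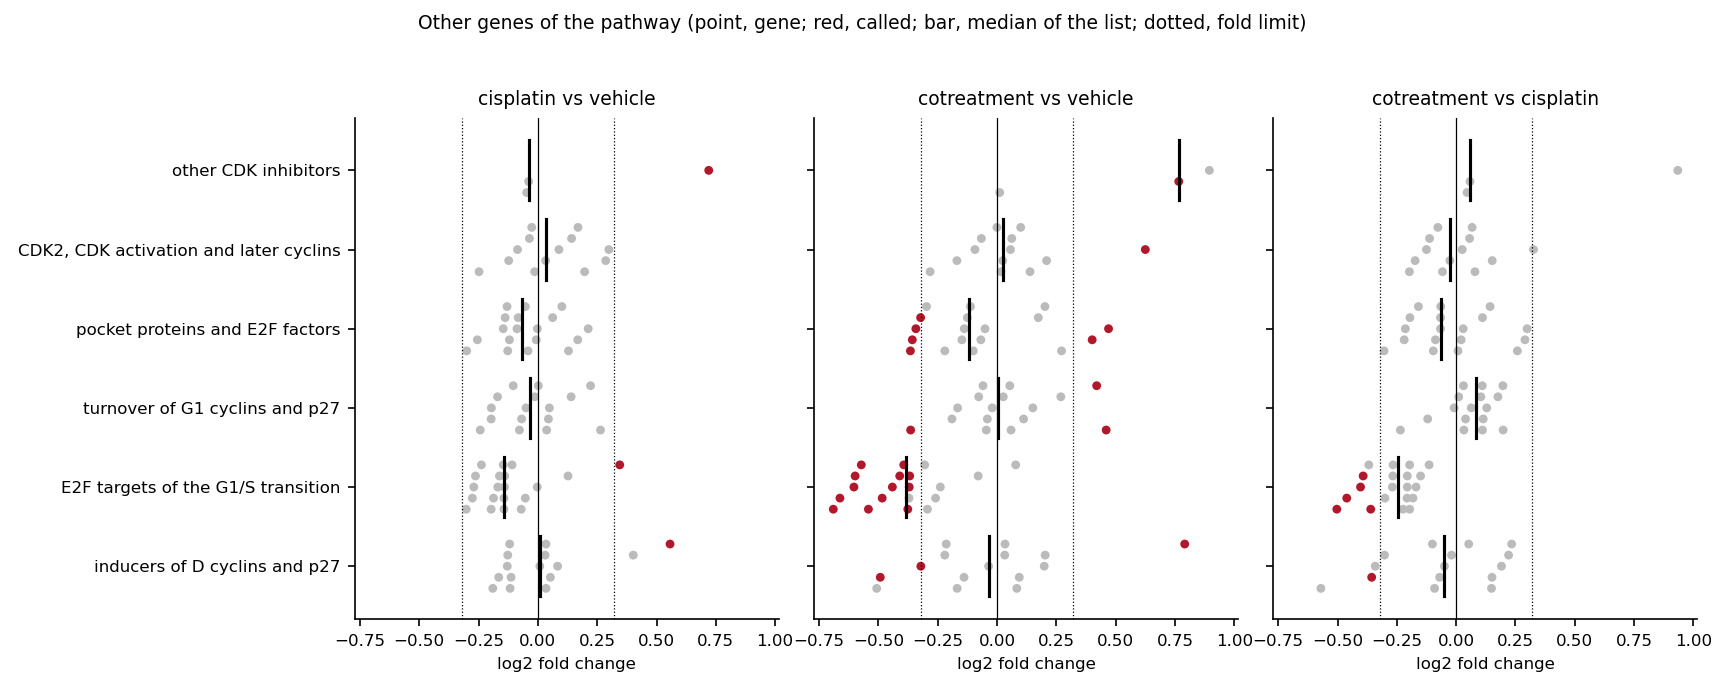
Log2 fold change (horizontal axis) of each tested gene in 6 lists of the G1 pathway in 3 comparisons; red points are called, black bars are list medians and dotted lines the fold limit of 0.32. The E2F targets lie furthest to the left with cotreatment, where 13 of 20 are called, and their median moves from -0.15 with cisplatin to -0.39 with cotreatment.

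The genes whose pattern over the 20 tumors was most like that of a called member were sought among 12730 tested genes with a symbol and a mean of at least 50 reads, by the root mean square difference of centered log2 CPM. For Ccnd3 they were Man2c1 (0.085) and E4f1 (0.088), where Ccnd3 itself varied by 0.232 about its mean. Ccne2 was most like Thap1 (0.0858) and Taf13 (0.0963), against its own variation of 0.259. Rb1 was nearest to Polk (0.116) and Slc35d1 (0.124), against 0.309, and Ccne1 to Ddx39 (0.108) and Cdca8 (0.111), against 0.209. The likeness of Ccne1 was thus the weakest relative to its own variation.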

How the data were processed

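RNA was extracted from 20 LLC1 tumors and made into stranded poly(A) libraries read as 50-base single ends. Per the study's methods, the authors aligned reads to mm10 with STAR, kept unique alignments and deposited raw counts per Ensembl gene from HTSeq-count (version 0.6.1p1, union mode); the strand setting and which of its Ensembl releases served the tumors are not given in the sources used here. Symbols, positions and exon lengths came from GENCODE M21 (GRCm38) by gene ID, which matched 35142 of 35226 genes.

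Counts were filtered by group with filterByExpr (16665 genes, 99.9% of reads), TMM-scaled and fitted with edgeR version 4.0.16 (robust quasi-likelihood, 4 group means, all 20 tumors; R version 4.3.3), with two-sided tests adjusted over all genes. Genes were called at an adjusted P under 0.05 and a log2 fold change of at least 0.32 in size, the limits the study applied. The 6 comparisons were those of KW6002, cisplatin and cotreatment with vehicle, of cotreatment with each single agent, and the interaction. Log2 CPM used a prior count of 2. The script was tested on simulated data. Reads carried no molecular identifiers.

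Members and lists were chosen with earlier results of these data known. All 10 members were named. From each other list the 2 genes called with the smallest adjusted P in each direction of cotreatment against vehicle were named, and every other CDK inhibitor, with the 2 genes most like each called member. E2f2, E2f5, Tk1, Chek1, Mcm2, Mcm5, Cdc6, Cul4b, Ccnb2, Pkmyt1, Ccnh, Fos, the called markers and the overlapping neighbors were named after their values were seen. Ccna1 and Mycn were in the lists but not among the genes tested, and the markers Nkx2-1, Sftpb and Krt1 were not found by symbol. Alternatives were DESeq2 version 1.42.0, other scalings and filters, no fold limit, a test against the limit, the run as a term or each run alone, a replicate block, the compared groups alone, and leaving out each tumor.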

Additional observations from a re-analysis of the deposited data

Results flagged for a closer look

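Of 40 sets of 5 tumors (10 genes in 4 groups), 2 had 1 tumor far from the other 4, by the gap to the nearest tumor as a share of the whole range of log2 CPM, with a critical value of 0.71. Chance flags about 1 in 20 such sets, and 2 of 40 is that rate. Cdkn1b was high in cotreatment replicate 1 (117 CPM, the other 4 at 92.2 to 96.1 CPM, gap 0.825 of the range). Without that tumor the log2 fold change of Cdkn1b from cisplatin to cotreatment was 0.11 in place of 0.18, and neither was called. Cotreatment then differed from vehicle by 0.03 in place of 0.10 and from KW6002 by 0.04 in place of 0.105, also not called. Rb1 was low in cotreatment replicate 5 (36.8 CPM, the other 4 at 46.2 to 48.3 CPM, gap 0.831 of the range). Without it the log2 fold change of Rb1 from vehicle was 0.53 (adjusted P = 0.00853, edgeR) in place of 0.46.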

How the results depend on the processing

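The 3 members called with cotreatment against vehicle (Ccnd3, Ccne2 and Rb1) were also called by DESeq2, with the run as a term, which added Cdk6, and with a replicate block, and no called value reversed under any alternative. Without the fold limit the counts of members called were 3 for cisplatin against vehicle, 5 for cotreatment against vehicle, 2 for cotreatment against cisplatin and 5 for cotreatment against KW6002. A test against the limit itself gave 0 for cotreatment against vehicle, 0 against cisplatin and 1 (Ccnd3) against KW6002. Within the later run alone, with fewer tumors, the counts were 3 for cisplatin against vehicle, 2 for cotreatment against vehicle (Ccnd3 and Cdk6, with Ccne2 and Rb1 lost), 0 for cotreatment against cisplatin and 1 for cotreatment against KW6002 (Ccnd3). The earlier run alone gave 2 for cotreatment against cisplatin (Ccnd1 and Ccnd3). Shares of all genes are not given for the fits of 1 run or for the test against the limit, so these counts have no background beside them. The single call between cotreatment and cisplatin (Ccne1) was also made by DESeq2 and with at least 10 counts in every tumor. Its log2 fold change lay between -0.38 and -0.25 over 12 alternatives. The call was lost with RLE scaling, with upper quartile scaling, without a filter, with the replicate block and with only the groups compared, and the cause was not tested. The run as a term also lost it and gave Ccnd1 in its place. Leaving out 1 tumor at a time gave 0 to 2 members for cisplatin against vehicle, 0 to 2 for cotreatment against cisplatin, and 1 to 2 genes in the list of CDK2 and later cyclins (2 without vehicle replicate 5). Of the 60 log2 fold changes of members, 20 that were not called changed sign under at least 1 alternative, 8 of them for KW6002 against vehicle, and none exceeded 0.24 in size in the reported fit.

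Replicate numbers are shared by the groups, and nothing in the labels says that they mark paired tumors. Of 30 same-numbered pairs 12 had deviations correlated above 0.1 (range -0.392 to 0.391), 4 of them among the 5 pairs of cisplatin and cotreated tumors (-0.163 to 0.226), where the replicate block lost the Ccne1 call. Each member had at least 376 reads in every tumor, while Cdkn1c, Cdkn2a and Cdkn2b had few, and the part of depth in this was not tested. The shares of D cyclins depend on the length used and were 60.1% for Ccnd1, 30.7% for Ccnd2 and 9.24% for Ccnd3 in vehicle tumors on counts not divided by length. Other scalings moved the median of all genes by no more than 0.0163 on the log2 scale.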
